A study of Mus musculus with 6 samples.

Results

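The 8 annexin genes *Anxa1* to *Anxa7* and *Anxa11*, together with *Mfge8*, 9 genes in all, were taken by name from the 12384 genes of a table of exosome RNA of mouse dendritic cells. The 9 genes held 29 of its 27544 listed transcripts, and all 9 passed the filter on low values. Exosomes are small vesicles that cells release. They came here from dendritic cells grown from C57BL/6 bone marrow for 7 days in vesicle-depleted medium with GM-CSF at 20 ng/ml and the cytokine IL-4 at 10 ng/ml. The immature group received PBS and the mature group 5 µg/ml lipopolysaccharide, the bacterial molecule sensed by Toll-like receptor 4, each for 24 h. The cells were then washed, and exosomes were collected by differential ultracentrifugation from medium of the next 48 h. Each group had 3 RNA libraries. Whether the 3 were separate cultures is not stated. P-values therefore reflect only how far these libraries vary, which can be technical variation. A treatment label reads untreated for all 6 samples, while the growth protocol gives lipopolysaccharide to the mature arm.

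Annexins are cytosolic proteins that bind phospholipid membranes when calcium rises, through a conserved core built of repeats, with a variable N-terminal tail that binds partner proteins. Several annexin proteins are regular constituents of exosomes, and annexin A5 is widely used to stain phosphatidylserine, a lipid that apoptotic cells and many vesicles expose. Mfge8, also called lactadherin, is a secreted protein that bridges phosphatidylserine to integrins, and it was described early on exosomes of dendritic cells. The values below are RNA levels in the vesicles and say nothing about the proteins.

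All 9 genes were placed by the table where RefSeq has them on the mouse build GRCm38. The submitters' processing notes name the human build hg19, but 11303 of 11321 genes with a RefSeq position (99.84%) overlapped it on GRCm38. *Anxa1* lies on chromosome 19 (20373428 to 20390944, minus strand), *Anxa2* on chromosome 9 (69453620 to 69491795, plus strand), *Anxa4* on chromosome 6 (86736840 to 86793584, minus strand) and *Anxa11* on chromosome 14 (25842156 to 25886804, plus strand). *Anxa3*, *Anxa5*, *Anxa6*, *Anxa7* and *Mfge8* lie on chromosomes 5, 3, 11, 14 and 7.

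*Anxa4*, *Anxa2*, *Anxa1* and *Anxa11* stand for the different patterns described below. The 250 bases before their RefSeq starts are shown, for *Anxa4* before the first of 2 starts. They come from RefSeq on GRCm38.p6, 5′ to 3′ on the strand of the gene, with motif matches in capitals.
Anxa4, chr6:86793585-86793834, minus strand: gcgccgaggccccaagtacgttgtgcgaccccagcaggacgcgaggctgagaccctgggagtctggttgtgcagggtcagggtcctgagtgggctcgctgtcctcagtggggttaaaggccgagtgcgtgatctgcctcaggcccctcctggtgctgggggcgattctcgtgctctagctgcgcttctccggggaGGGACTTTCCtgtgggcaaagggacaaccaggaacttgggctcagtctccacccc
Anxa2, chr9:69453433-69453682, plus strand: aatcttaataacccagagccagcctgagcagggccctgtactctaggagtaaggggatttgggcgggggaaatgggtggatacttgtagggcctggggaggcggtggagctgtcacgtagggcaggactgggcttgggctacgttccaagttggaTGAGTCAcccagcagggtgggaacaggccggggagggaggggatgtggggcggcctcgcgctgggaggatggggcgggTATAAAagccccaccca
Anxa1, chr19:20390672-20390921, minus strand: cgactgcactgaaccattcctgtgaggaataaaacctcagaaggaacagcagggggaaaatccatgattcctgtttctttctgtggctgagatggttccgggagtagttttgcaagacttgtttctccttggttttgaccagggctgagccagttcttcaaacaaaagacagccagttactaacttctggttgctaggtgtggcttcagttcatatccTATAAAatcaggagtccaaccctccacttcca
Anxa11, chr14:25841905-25842154, plus strand: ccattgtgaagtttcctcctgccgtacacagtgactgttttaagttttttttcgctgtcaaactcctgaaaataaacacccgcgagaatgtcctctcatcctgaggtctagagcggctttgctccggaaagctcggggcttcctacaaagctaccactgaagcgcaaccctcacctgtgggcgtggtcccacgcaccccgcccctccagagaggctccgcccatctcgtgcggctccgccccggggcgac

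These windows were searched on both strands for the NF-kB consensus, for its exact 10-base form (in capitals in the *Anxa4* window), for the interferon-stimulated response element core, for the AP-1 site TGANTCA and for the TATA box TATAAA. NF-kB and AP-1 are transcription factors of the inflammatory response. Of the 9 genes, 7 had a promoter sequence (*Anxa3* and *Anxa6* did not), and 3 of these held a match. The *Anxa4* window held the exact NF-kB form at -55 to -46, counted back from the start. Of 32851 mouse promoter windows 0.14% held this exact form, which is contained in the consensus, and 3.9% held the consensus. The *Anxa2* window held an AP-1 site, TGAGTCA, at -95 to -89 and a TATA box at -17 to -12. The *Anxa1* window held a TATA box at -32 to -27. That window lies within the listed transcript Anxa1-201, which starts at 20390944. The listed transcript Anxa2-201 starts at 69453620, inside the *Anxa2* window and before its TATA box. AP-1 sites were in 6.75% and TATA boxes in 12.4% of all windows, and the interferon-stimulated element, in 2.98% of all, was in none of the members' windows. A match is a run of letters and was not tested as a binding site.

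The libraries differed in ways that touch every gene. FPKM (mapped fragments scaled to transcript length and to the library's total) summed to between 135814 and 213737 in the immature libraries and between 130401 and 281368 in the mature ones. Immature 2 and mature 1 had the fewest transcripts at an FPKM of 0.5 or more, 10912 and 12924 against 15432 to 18775 in the other 4, and the most mitochondrial RNA, 2.55% and 0.94% of summed FPKM against 0.0696% to 0.282%. The median log2 fold change (mature minus immature) of the 10277 tested genes was 0.38, and median-of-ratios, upper-quartile and quantile scaling brought it to 0.02, 0.03 and -0.04. All 13 dendritic cell markers were listed, led by *Cd74*, *H2-Aa*, *H2-Ab1* and *H2-Eb1*. *Flt3* stayed under 1 FPKM in every library and *Cd209a* was listed at 0 in 4 libraries. The 13 markers, mostly by way of those 4 antigen presentation genes, summed to 878 to 1812 FPKM in the immature and 2040 to 3370 FPKM in the mature libraries, without overlap. Singly, 4 of the 13 were higher without overlap, against 16.7% of all tested genes, and 9 overlapped. As a share of all FPKM the sum of the 13 overlapped, at 0.411% to 1.33% and 0.725% to 1.71%.

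Summed annexin RNA had its 3 highest values in the mature libraries, with *Anxa2* leading. The 8 annexins summed to 309, 433 and 247 FPKM in immature 1, 2 and 3 and to 451, 595 and 581 FPKM in mature 1, 2 and 3. All mature sums lay above all immature sums, and the means were 329.6 ± 95 (SD, n = 3) and 542 ± 79.6 FPKM, a ratio of 1.64. The 2-sided exact permutation test gave p = 0.1, the smallest that 3 against 3 allows. As a share of all FPKM in the library the annexins made up 0.212%, 0.319% and 0.115% of the immature and 0.346%, 0.212% and 0.236% of the mature libraries, and the groups overlapped. After scaling to a common summed FPKM the ratio was 1.23 (exact permutation p = 0.5), and with median-of-ratios scaling it was 1.09 (exact permutation p = 0.9).

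Of the 9 genes, 0 passed the test (limma on log2(FPKM + 1) over all genes, Benjamini-Hochberg adjusted p under 0.05), where 0.185% of all genes were called higher and 0% lower. Missing the threshold does not show that a gene did not differ, and the intervals below are wide. By unadjusted p (under 0.05), 2 of the 9 stood higher (*Anxa7* and *Anxa11*) and 0 stood lower, against 9.52% and 0.224% of all genes. The groups did not overlap in 4 of the 9, all higher in the mature group (*Anxa2*, *Anxa7*, *Anxa11* and *Mfge8*), against 16.7% of all genes, and 0 were lower without overlap, against 0.642%. The fold change was above 0 for 7 of the 9 and for 7853 of the 10277 tested genes, and its median was 1.01 over the 9 and 0.38 over all. With median-of-ratios scaling the genes at an unadjusted p under 0.05 were 480 higher and 237 lower in place of 978 and 23, and 1 member, *Anxa11*, was among them.

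**Figure D1:**
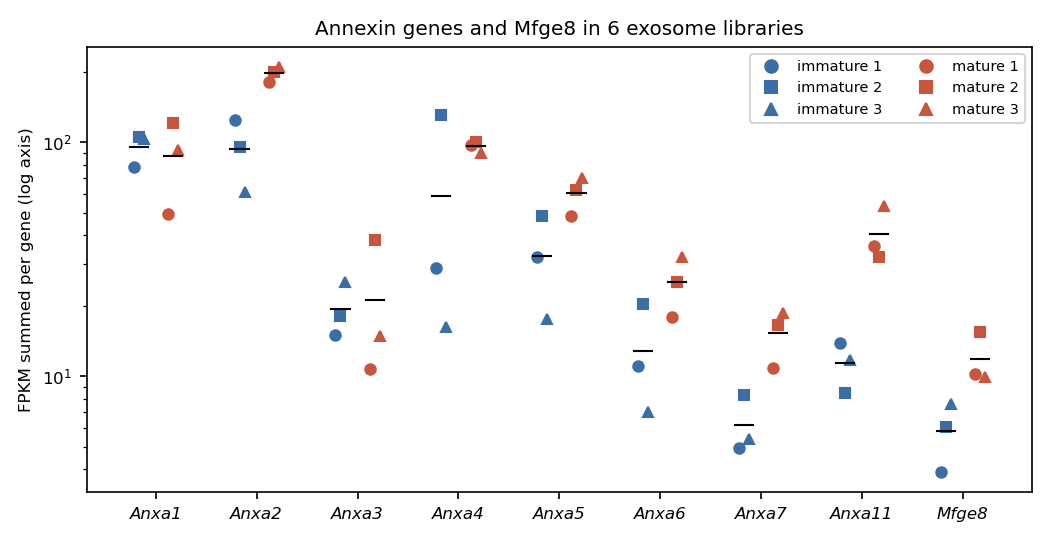
FPKM summed per gene (log axis) for the 9 genes, 1 point per library, blue for immature and red for mature, with black lines at the group means. The red points of Anxa2, Anxa7, Anxa11 and Mfge8 all lie above the blue ones, those of Anxa1 and Anxa3 are mixed with them, and 1 blue point of Anxa4 lies at 130.5 FPKM above the red ones.

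*Anxa11* had the largest fold change of the 9 genes over the 6 libraries, while without immature 2 *Anxa4* was larger, at 2.09 against 1.55 on the log2 scale. Its protein binds the calcium sensor ALG-2 and tethers RNA granules to lysosomes for transport. It stood at 13.9, 8.45 and 11.8 FPKM in the immature and at 35.8, 32.3 and 53.3 FPKM across the mature libraries. Every mature value was above every immature one by a wide gap. The log2 fold change was 1.74 (SE 0.47, 95% interval 0.70 to 2.77, not adjusted for the number of genes), with limma adjusted p = 0.242 and unadjusted p = 0.00359. By level, *Anxa11* ranked 1379, 2121 and 2193 among all genes of the immature libraries and 549, 1242 and 676 in the mature ones, and per 1000000 of all FPKM it stood at 55.0 to 95.8 and 115 to 275, again without overlap.

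*Anxa7*, or synexin, which promotes membrane fusion and was the first annexin to be described, was lower in level. It stood at 4.94, 8.27 and 5.396 FPKM in the immature and 10.9, 16.6 and 18.6 FPKM in the mature libraries. All mature values lay above the immature ones, and the log2 fold change was 1.18 (SE 0.47, 95% interval 0.14 to 2.22; limma adjusted p = 0.448). Per 1000000 of all FPKM the groups overlapped, at 25.2 to 60.9 and 58.9 to 83.2.

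*Anxa2* was the most abundant of the 9 genes on average. Its protein forms a tetramer with S100A10 that assembles plasminogen and its activator at the cell surface. It stood at 124, 94.8 and 61.0 FPKM in the immature and 181, 199.6 and 209 FPKM in the mature libraries. The mature values were close together and all above the immature ones, and the log2 fold change was 1.12 (SE 0.53, 95% interval -0.06 to 2.30; limma adjusted p = 0.525). Among all genes of a library *Anxa2* ranked 177, 211 and 427 in the immature and 106, 211 and 201 in the mature libraries, and immature 2 and mature 2 shared the same rank. Per 1000000 of all FPKM it stood at 285 to 856 and 709 to 1386, with overlap.

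*Mfge8* was the least abundant of the 9 genes on average. It stood at 3.89, 6.06 and 7.62 FPKM in the immature and 10.2, 15.4 and 9.89 FPKM in the mature libraries. The groups did not overlap, and the log2 fold change was 0.92 (SE 0.47, 95% interval -0.13 to 1.96; limma adjusted p = 0.556). Per 1000000 of all FPKM they overlapped, at 26.8 to 44.6 and 40.3 to 78.2.

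*Anxa4*, an annexin that crosslinks membranes, differed most between libraries of the same group. It stood at 29.1, 130.5 and 16.2 FPKM in the immature and at 96.8, 100.4 and 89.9 FPKM across the mature libraries. Immature 2 was above all others, while immature 1 and 3 were far below the mature libraries, which agreed closely (58.6 ± 62.6 and 95.7 ± 5.31 FPKM, SD, n = 3). The log2 fold change was 1.24 (SE 0.71, 95% interval -0.33 to 2.82; limma adjusted p = 0.594). Without immature 2 it was 2.09 (limma adjusted p = 0.269), and without immature 3 it was 0.62.

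*Anxa5* and *Anxa6* were higher on average in the mature group, with overlap. *Anxa5*, the phosphatidylserine binder, stood at 32.1, 48.3 and 17.6 FPKM in the immature and 48.1, 62.5 and 70.3 FPKM in the mature libraries. Immature 2 and mature 1 were nearly equal and were the pair that overlapped. Its fold change on the log2 scale was 0.96 (SE 0.52; limma adjusted p = 0.570). *Anxa6*, whose protein is longer than the other annexins because its repeat core is duplicated, and which acts on endosomes, stood at 11.01, 20.3 and 7.01 FPKM and at 18.0, 25.3 and 32.4 FPKM. Again only immature 2 and mature 1 overlapped. The log2 fold change was 1.01 (SE 0.52; limma adjusted p = 0.555).

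*Anxa1* and *Anxa3* had log2 fold changes near 0 as deposited, and below 0 after scaling. *Anxa1*, whose protein is induced by glucocorticoids and limits inflammation through formyl peptide receptors, stood at 78.2, 104.7 and 102.6 FPKM in the immature and 49.5, 120.6 and 92.6 FPKM in the mature libraries. Both the lowest and the highest value were in the mature group, and the log2 fold change was -0.20 (95% interval -1.39 to 0.99; limma adjusted p = 0.943). Per 1000000 of all FPKM, however, *Anxa1* stood at 538, 771 and 480 in the immature and 380, 429 and 377 in the mature libraries, with the mature values below the immature ones. The log2 fold change after that scaling was -0.56 (limma adjusted p = 0.801). After it, 157 of the 10277 tested genes stood lower by unadjusted limma p (under 0.05), against 23 unscaled, and 0 of the members did. The share of all genes without overlap on that scale is not given here. *Anxa3*, an annexin abundant in neutrophils, stood at 15.0, 18.0 and 25.3 FPKM and at 10.8, 38.1 and 14.8 FPKM, and the log2 fold change was -0.05 (95% interval -1.27 to 1.18; limma adjusted p = 0.990). With median-of-ratios scaling *Anxa3* was at -0.53 and *Anxa1* at -0.70. The highest *Anxa3* FPKM, in immature 3 and mature 2, fell in the libraries where the 12 neutrophil markers summed highest. The markers summed to 1263 and 1361 FPKM there, against 204 to 457 FPKM in the other 4. Per 1000000 of all FPKM, *Anxa3* stood at 103, 132 and 118 in the immature and 82.6, 135 and 60.3 in the mature libraries. On that scale immature 2, and not immature 3, was the highest of its group. The part of those cells in the *Anxa3* values was not tested. In such bulk samples, RNA from fewer cells of a type and less RNA per cell cannot be told apart.

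**Figure D2:**
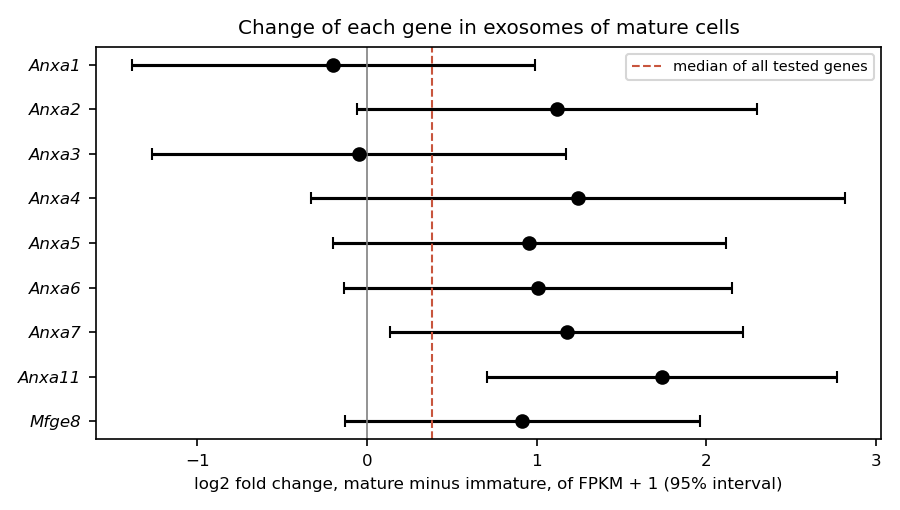
Log2 fold change of FPKM + 1 (mature minus immature) with its unadjusted 95% interval for each of the 9 genes, with the median of all tested genes at 0.38 as a dashed line. The intervals of Anxa7 and Anxa11 lie above 0, that of Anxa11 also above the dashed line, and the other 7 include 0.

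The order of levels differed between the groups at its top. In the immature group *Anxa1* (95.2 ± 14.8 FPKM, SD, n = 3) and *Anxa2* (93.4 ± 31.8) led and did not differ beyond their spread, followed by *Anxa4* (58.6 ± 62.6), *Anxa5* (32.7 ± 15.3), *Anxa3* (19.4 ± 5.30), *Anxa6* (12.8 ± 6.82), *Anxa11* (11.4 ± 2.76), *Anxa7* (6.20 ± 1.81) and *Mfge8* (5.86 ± 1.87). Each neighbour in that order overlapped the next over libraries except *Anxa11* and *Anxa7*. In the mature group *Anxa2* (196 ± 14.2 FPKM) stood above all others in every library. It was followed by *Anxa4* (95.7 ± 5.31), *Anxa1* (87.6 ± 35.8), *Anxa5* (60.3 ± 11.2), *Anxa11* (40.5 ± 11.3), *Anxa6* (25.2 ± 7.21), *Anxa3* (21.2 ± 14.7), *Anxa7* (15.3 ± 3.999) and *Mfge8* (11.8 ± 3.09). After *Anxa2*, each neighbour overlapped the next over libraries, *Anxa11* (from 32.3 FPKM) and *Anxa6* (up to 32.4 FPKM) barely. Within each mature library, however, *Anxa1* stood above *Anxa5*, *Anxa5* above *Anxa11*, *Anxa11* above *Anxa6* and *Anxa7* above *Mfge8*. The other neighbours after *Anxa2* changed order between libraries.

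Shares within the annexin sum do not depend on how libraries are scaled against each other. *Anxa1* made up 25.3%, 24.2% and 41.6% of the annexin FPKM in the immature and 10.98%, 20.3% and 16.0% in the mature libraries. Its share was lower in every mature library, with means of 30.4% and 15.7%. *Anxa11* made up 4.51%, 1.95% and 4.76% against 7.95%, 5.42% and 9.18%, and *Anxa7* 1.60%, 1.91% and 2.19% against 2.41%, 2.78% and 3.20%. Both shares were higher in every mature library. The share of *Anxa2* overlapped, at 21.9% to 40.3% and 33.5% to 40.1%. Shares sum to a fixed total, so they show unequal change among the genes and not which of them changed. *Anxa2* stood at 1.59, 0.906 and 0.594 times the FPKM of *Anxa1* in the immature and at 3.65, 1.66 and 2.25 times in the mature libraries.

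**Figure D3:**
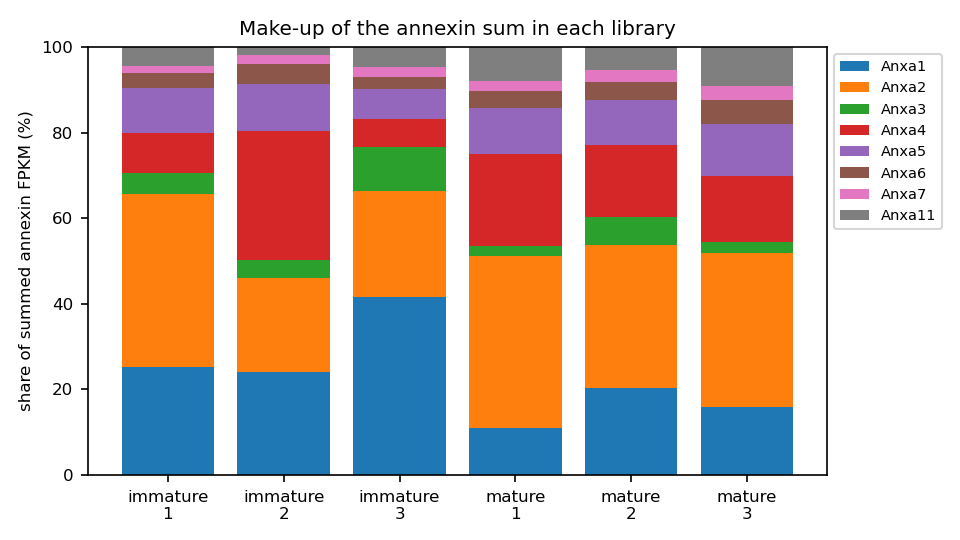
Share of each of the 8 annexins in the summed annexin FPKM (percent) in each library, stacked to the full height. The Anxa1 part runs from 24.2% to 41.6% in the immature and from 10.98% to 20.3% in the mature libraries, while the Anxa11 part is larger in the mature libraries.

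Of the 29 listed transcripts of the 9 genes, 26 were protein coding and 3 were processed transcripts, and 23 passed the filter and were tested. None passed the transcript test (0 of 23, limma), where 0.0626% of all 15972 tested transcripts were called higher and 0.0125% lower. By unadjusted p (under 0.05), 5 stood higher in the mature group and 0 lower, against 7.39% and 0.682% of all transcripts, and the groups did not overlap in 7, all higher, against 13.1%, with 0 lower against 1.39%. Transcript values depend on how the authors' software divided reads among overlapping isoforms. *Anxa1* and *Anxa5* came almost wholly from Anxa1-201 and Anxa5-201, which held 96.9% and 95.7% of their gene sums on average.

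*Anxa4* was spread over several isoforms that differed between libraries. Anxa4-201, the transcript whose start coincides with the promoter window above, stood at 10.4, 28.4 and 7.35 FPKM in the immature and 70.7, 76.0 and 59.9 FPKM in the mature libraries. All mature values were above the immature ones, and the log2 fold change was 2.30 (SE 0.59, 95% interval 0.97 to 3.63; limma adjusted p = 0.324, unadjusted p = 0.00343). Anxa4-202, which lies at 86736840 to 86765910 and starts inside the gene, stood at 73.5 FPKM in immature 2 and between 0.00692 and 0.164 FPKM in the other 5 libraries. It made up 56.4% of the *Anxa4* sum of immature 2, so the high gene value of that library rested in large part on this transcript. Within the immature group Anxa4-201 was also highest in that library, and Anxa4-209 was lowest there. Without Anxa4-202 the gene had a log2 fold change of 1.64 (limma adjusted p = 0.378, unadjusted p = 0.0135). Anxa4-209 stood at 6.43, 2.71 and 3.42 FPKM against 20.1, 7.83 and 10.6 FPKM, and the log2 fold change was 1.38 (limma adjusted p = 0.565).

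*Anxa11* also had a different make-up in immature 2. Anxa11-202 stood at 12.5, 0 and 8.98 FPKM in the immature and 33.1, 30.1 and 52.8 FPKM in the mature libraries, while Anxa11-201 stood at 1.42, 8.45 and 2.77 and at 2.75, 2.18 and 0.537 FPKM. In immature 2 Anxa11-202 was listed at 0 and Anxa11-201 made up the whole gene sum. In the other 5 libraries Anxa11-202 made up 76.4% to 99.0%. The log2 fold change of Anxa11-202 was 2.91 (SE 0.92; limma adjusted p = 0.435), 1.73 without immature 2, 3.61 without immature 1 and 4.06 with a pseudocount of 0.1, and that of Anxa11-201 was -0.75 (limma adjusted p = 0.850).

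*Anxa7* and *Anxa6* were divided among transcripts differently from library to library. Anxa7-201 was at 4.59, 1.98 and 5.28 FPKM and at 2.98, 5.19 and 7.85 FPKM (log2 fold change 0.35, limma adjusted p = 0.928). Anxa7-207 was listed at 0 in immature 1 and 3, at 6.28 FPKM in immature 2 and at 3.51, 3.97 and 10.7 FPKM across the mature libraries. Anxa6-201 was at 5.18, 1.54 and 0 FPKM against 7.05, 11.01 and 11.4 FPKM, higher without overlap (log2 fold change 2.08, SE 0.70, limma adjusted p = 0.470). Its fold change was 1.42 without immature 3, 2.74 without immature 1 and 3.35 with a pseudocount of 0.1. Anxa6-202, the more abundant, overlapped between groups at 8.01 ± 4.95 and 12.9 ± 3.65 FPKM, and Anxa6-203, a processed transcript, at 2.52 ± 2.21 and 2.47 ± 1.504 FPKM (SD, n = 3).

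The main *Anxa2* transcript carried the higher values of that gene. Anxa2-201 was at 98.2, 61.5 and 50.2 FPKM in the immature and 171, 160.4 and 187 FPKM in the mature libraries, without overlap (log2 fold change 1.35, SE 0.53, limma adjusted p = 0.552). Anxa2-203 was at 21.6 ± 10.9 and 19.6 ± 12.2 FPKM and made up 16.1% of the gene on average. Anxa3-201 was at 16.5 ± 4.16 and 18.4 ± 14.2 FPKM and Anxa3-205 at 2.40 ± 1.73 and 2.82 ± 0.567 FPKM (SD, n = 3). Mfge8-201 was at 3.47, 5.77 and 5.43 FPKM against 7.46, 7.14 and 8.81 FPKM, without overlap (limma adjusted p = 0.836). Mfge8-202 ranged from 0 in mature 3 to 8.24 FPKM in mature 2, where it made up 53.6% of the gene.

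**Figure D4:**
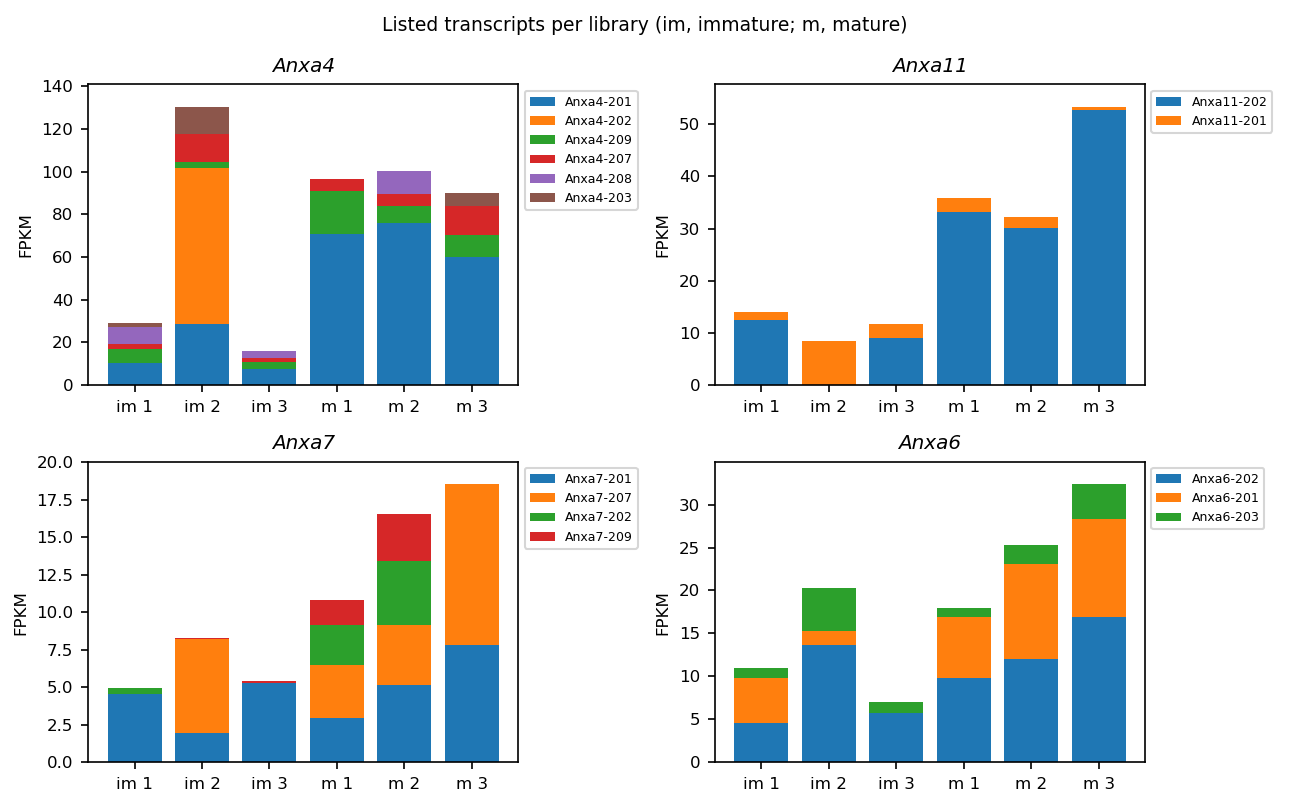
FPKM of the listed transcripts of Anxa4, Anxa11, Anxa7 and Anxa6, stacked per library (im, immature; m, mature). Anxa4-202 fills 73.5 FPKM of the bar of immature 2 alone, and Anxa11-202 is listed at 0 in that library while it makes up most of the other 5 bars.

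Related genes were taken from lists of annexin partners and of phosphatidylserine handling. Of the other annexin genes *Anxa9* was listed, at 0 to 1.62 FPKM in the immature and 0.248 to 1.68 FPKM in the mature libraries. Of 10 tested direct partners of annexins, 0 passed the test, and the median log2 fold change was 0.12. By unadjusted p (under 0.05), 1 of the 10 was higher, against 9.52% of all genes. *S100a10*, which encodes the annexin A2 partner, was at 150.3 ± 42.7 and 164 ± 14.8 FPKM (limma adjusted p = 0.954). *S100a11*, which encodes the annexin A1 partner, had 189 ± 70.1 and 181 ± 44.7 FPKM (limma adjusted p = 0.993). *S100a6* and *S100a4* were at 125 ± 43.9 and 133 ± 33.7 FPKM and at 60.7 ± 40.0 and 60.6 ± 37.0 FPKM. The gene higher at the unadjusted threshold was *Sri*, which encodes sorcin, a calcium-binding partner of annexin A7, at 10.4, 0.373 and 8.82 FPKM against 14.4, 31.7 and 23.0 FPKM (limma adjusted p = 0.407).

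Receptors of annexin A1 and the plasminogen system of annexin A2 had a list median of 2.03 over 6 tested genes. It was 1.27 with the stricter filter of at least 1 FPKM in all libraries. Of the 6 genes, 0 passed the test and 4 were higher by unadjusted p (under 0.05), against 9.52% of all genes. *Plaur*, the urokinase receptor gene, stood at 16.9, 11.6 and 18.5 FPKM among immature and 94.5, 54.5 and 68.3 FPKM among mature libraries. The groups were far apart, and the log2 fold change was 2.13 (SE 0.48, limma adjusted p = 0.153). *Plau*, which encodes urokinase itself, was at 31.0 ± 20.2 and 15.6 ± 1.84 FPKM (SD, n = 3; limma adjusted p = 0.682). *Fpr2* and *Fpr1*, formyl peptide receptor genes, were at 5.70 ± 6.11 and 23.5 ± 12.7 FPKM and at 3.52 ± 2.35 and 12.5 ± 10.6 FPKM (limma adjusted p = 0.376 and 0.607). *Plaur* and *Fpr2* were among the 4, and *Serpinb2*, a serpin gene also among them, stood at 0.137 to 0.278 FPKM in the immature libraries and passed the filter only through the mature group.

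Scramblases and flippases, which move phosphatidylserine across the membrane, had a median log2 fold change of 0.18 over 12 tested genes, with 0 past the test. By unadjusted p (under 0.05), 1 of the 12 was higher, against 9.52% of all genes. *Plscr1*, a scramblase-family gene, was at 9.62 ± 6.93 and 25.6 ± 21.4 FPKM (SD, n = 3). *Tmem30a*, which encodes the flippase subunit CDC50A, was at 5.66, 1.52 and 4.47 FPKM against 7.998, 10.96 and 11.6 FPKM (limma adjusted p = 0.450). *Atp11b*, a flippase gene, was at 7.93 ± 6.16 and 7.10 ± 6.98 FPKM (SD, n = 3; limma adjusted p = 0.943). Receptors, bridging proteins and integrins that bind phosphatidylserine or Mfge8 had a median of 0.42 over 12 tested genes, close to that of all genes, with 0 past the test. Against 9.52% of all genes, 1 gene of this list was higher by unadjusted p (under 0.05). That gene was *Thbs1*, which encodes thrombospondin-1, at 32.2, 39.0 and 19.5 FPKM against 105, 55.1 and 131 FPKM (limma adjusted p = 0.374). *Cd300lf*, *Cd36* and *Lrp1*, all receptor genes, were at 20.7 ± 1.95 and 35.0 ± 15.8, 41.6 ± 44.0 and 12.01 ± 3.95, and 12.7 ± 8.94 and 26.4 ± 13.2 FPKM. The integrin genes *Itgav*, *Itgb3* and *Itgb5*, whose products bind Mfge8, had limma adjusted p = 0.570, 0.789 and 0.892. *Itgav* stood at 34.2 FPKM in mature 1 and at 1.69 to 5.39 FPKM in the other 5 libraries. Copines, synaptotagmins and their relatives, other calcium-dependent membrane binders, had a median of 0.83 over 8 tested genes, with 0 past the test. With the stricter filter the list median was 0.44, against 0.43 over all genes. *Sytl3* was higher by unadjusted p, but at 0 to 0.00283 FPKM in the immature libraries it passed the filter only through the mature group. *Cpne2*, *Syt7*, *Esyt1* and *Cpne1* were the most abundant of them, with limma adjusted p = 0.546, 0.540, 0.937 and 0.566.

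**Figure D5:**
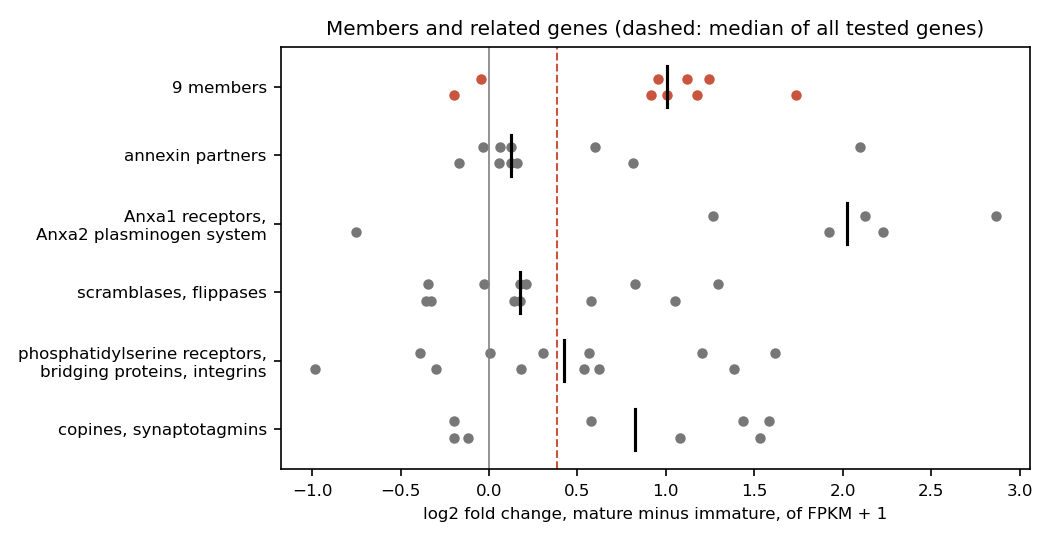
Log2 fold change of FPKM + 1 (mature minus immature) of the 9 members and of the tested genes of 5 related lists, 1 point per gene, with a black line at each list median and a dashed line at 0.38, the median of all tested genes. Of the 9 members, 7 lie above the dashed line, and the list of annexin A1 receptors and the plasminogen system has its median at 2.03.

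Markers of other cells were listed beside the members. The 12 neutrophil markers were all listed, at summed levels of 204 to 1263 FPKM in the immature and 259 to 1361 FPKM in the mature libraries. Of 12 macrophage and monocyte markers 11 were listed, at 129 to 179 and 123 to 495 FPKM. Of 10 mast cell, basophil and eosinophil markers 9 were listed, at 12.5 to 30.2 FPKM in the immature and 42.0 to 83.6 FPKM in the mature libraries, without overlap, with *Tpsb2* not listed and *Fcer1a* at 0 in 4 libraries. Of 9 stromal and endothelial markers 7 were listed, at 11.02 to 23.2 and 19.0 to 32.6 FPKM, with *Cdh5* and *Lum* not listed. Of the 9 listed mast cell, basophil and eosinophil markers, 3 were higher without overlap (*Mcpt8*, *Hdc* and *Gata2*, named after their values were seen). Of all tested genes 16.7% were higher without overlap. *Cpa3*, *Kit*, *Ms4a2*, *Fcer1a*, *Prg2* and *Epx* overlapped, and *Prg2* held 25.2 FPKM of the list's 30.2 FPKM in immature 2. As a share of all FPKM this list stood at 0.00861% to 0.0223% and 0.0255% to 0.0340%. The part of these cells, and of the dendritic cell markers, in the members' values was not tested.

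The genes with the most similar profiles over the 6 libraries were sought for the 3 most abundant members, by the root mean square difference of log2(FPKM + 1) centred on each gene's mean, among 9045 tested genes at a mean FPKM of at least 1. For *Anxa2* these were *Chchd7*, *Htra1* and *Vps18*, at differences of 0.10, 0.14 and 0.16. *Htra1* was near 0, at 0 to 0.638 FPKM in the immature and 1.55 to 1.95 FPKM in the mature libraries. At such levels this scale understates changes. For *Anxa1* the nearest genes were *Ostc*, *Inpp4a* and *Etf1*, each at 0.09. For *Anxa4* they were *Esd*, *Cd86* and *Clec4d*, at 0.16, 0.17 and 0.21. *Cd86*, a co-stimulatory gene of dendritic cells, stood at 19.1 FPKM in immature 2 against 5.63 and 2.21 FPKM in immature 1 and 3 and at 17.4 to 19.7 FPKM in the mature libraries, so immature 2 was high for it as for *Anxa4*.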

How the data were processed

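RNA of 6 exosome libraries was measured as FPKM, which the authors deposited per transcript and library, per the file headers. Tools named in the submitters' notes, without a role, are HISAT2 2.0.5 and STAR 2.5.2b, besides StringTie and cutadapt. FPKM gives no read totals, so the depth is unknown and no counting interval is given. Reads of paralogs or overlapping genes may be shared between them, and the strand setting is not given in the sources used here. 1 line of the table was not analysed here.

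FPKM was summed per gene. Features reaching 0.5 FPKM in 3 or more libraries entered limma 3.58.1 (R 4.3.3, trend and robust) on log2(FPKM + 1), mature minus immature, unscaled and without a block. This scale understates changes of low genes. P-values were Benjamini-Hochberg adjusted over all features; the fit was tested on simulated data. The annexin sum had a 2-sided exact permutation test. Groups and replicate numbers come from sample titles. Promoters were searched in Python 3.11.15.

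The members and lists were chosen with earlier results of these data known. Named were the members, each gene's most abundant transcript and those with at least 10% of its sum, up to 4 genes per list (the most abundant, some of which are not reported here), and the 3 nearest profiles of the 3 most abundant members. *Sri*, *Serpinb2*, *Tmem30a*, *Sytl3*, *Mcpt8*, *Hdc*, *Gata2*, *Cpa3*, *Kit*, *Ms4a2*, *Prg2*, *Epx*, the integrin genes and Anxa4-202 were chosen after their values were seen. Alternatives covered pseudocount, filter, scaling, limma options, block, protein coding sums and left-out libraries; a common summed FPKM and *Anxa4* without Anxa4-202 were added after seeing the data.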

Additional observations from a re-analysis of the deposited data

How the results depend on the processing

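No member and none of the member transcripts refitted passed the test under any alternative run (0 in each). The fold changes of *Anxa2*, *Anxa4*, *Anxa5*, *Anxa6*, *Anxa7*, *Anxa11* and *Mfge8* stayed above 0 under all of them. Without 1 library they ranged from 0.85 to 1.35, 0.62 to 2.09, 0.58 to 1.29, 0.67 to 1.38, 1.03 to 1.39, 1.52 to 1.88 and 0.69 to 1.10. *Anxa1* ranged from -0.47 to 0.16 and *Anxa3* from -0.55 to 0.31, and without both immature 2 and mature 1 they were 0.24 and 0.28. Median-of-ratios, upper-quartile and quantile scaling brought the median of all genes to 0.02, 0.03 and -0.04, *Anxa1* to -0.70, -0.68 and -0.73, *Anxa3* to -0.53, -0.51 and -0.54, *Anxa2* to 0.61, 0.63 and 0.65 and *Anxa11* to 1.25, 1.27 and 1.21. By unadjusted p (under 0.05), 1 member was then higher, against 4.67%, 4.85% and 4.25% of all genes. Without immature 2 it was 5 members against 8.35% of all genes, and without both immature 2 and mature 1 it was 5 against 19.1%.

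Transcripts near 0 changed sign. Anxa3-205 was -0.031, -0.010 and -0.10 and Anxa6-203 -0.30, -0.24 and -0.23 under the 3 scalings, Anxa7-201 was -0.017 and -0.11 with median-of-ratios and quantile scaling, and Anxa6-203 was -0.25 with a common summed FPKM. Without 1 library Anxa1-201 ranged from -0.49 to 0.10, Anxa2-203 from -0.68 to 0.34, Anxa3-201 from -0.63 to 0.35 and Anxa6-203 from -0.27 to 0.53, and without both immature 2 and mature 1 the first 3 were 0.19, 0.65 and 0.36.

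The 19 genes called over all genes became 9 with a pseudocount of 0.1, 10 with the stricter filter, 12 with median-of-ratios scaling, 61 without both immature 2 and mature 1, and 0 to 27 without 1 library. Leaving out immature 1 gave 7, mature 2 gave 6 and mature 3 gave 0. The cause was not tested. The annexin difference of 213 FPKM ranged from 171 to 264 without 1 library. With the replicate block 5 genes were called and 0 members. The deviations of same-numbered libraries from their group means correlated at -0.03, -0.45 and -0.13, and none correlated best with its own number. Deviations from a mean of 3 libraries sum to 0 and are not independent, so these correlations cannot decide whether the numbers pair the samples.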
